A study of Mus musculus with 12 samples.

Results

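The 9 genes described here handle extracellular ATP, NAD and adenosine in mouse spleen T cells: Entpd1, Nt5e, Cd38, Adora2a, Adora2b, Dpp4, Ada, Slc29a1 and Adk. They were matched by gene symbol among the 53762 symbols of the deposited count table, and all 9 were found and passed the filter on low counts that left 16945 genes to test. The genes were chosen by pathway role, with fold changes and adjusted p-values of these same libraries, for partner and for time, already known. Their levels, fold changes and calls are therefore a description, and nothing is supported by the number that passed the test. RNA had been sequenced from spleen T cells co-cultured with a partner cell named Res in the labels, and the stated aim was to find T cell genes that differ with the partner. The 4 groups were T cells with the Res_shFabp7 partner for 48 h, with the Res_ctrl partner for 48 h, with Res_shFabp7 for 24 h and with Res_ctrl for 24 h, at 3 libraries each. The shFabp7 label denotes a short hairpin RNA against Fabp7, a fatty acid binding protein gene, and it is carried by the partner cells and not by the T cells. Mouse strain and age, the identity of the Res cells (the study's title speaks of cancer cells), the number of hairpins or clones and the way in which T cells were separated from their partners are not stated in the labels. All groups shared RPMI-1640 medium with serum and antibiotics. Separate cultures or animals behind the 3 replicates are not stated either. Each p-value therefore reflects the spread among these libraries alone, and that spread may be technical.

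Cells release ATP into their surroundings when they are stressed or die. On the cell surface Entpd1 (CD39) removes phosphates from ATP and ADP to leave AMP, and Nt5e (CD73) turns AMP into adenosine, while Cd38 consumes NAD and opens another route to AMP. Adenosine acts on G protein-coupled receptors, of which Adora2a is known to raise cyclic AMP in T cells and to restrain their activation. It is removed by uptake through the nucleoside transporter Slc29a1, by deamination through Ada and by phosphorylation through Adk. Dpp4 (CD26) is a surface peptidase that in humans also anchors adenosine deaminase to the cell.

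Nt5e and Dpp4 were the members lower with the shFabp7 partner at both times, and their promoters are shown so that the letters upstream of these genes can be compared. Each run holds the 250 bases before the RefSeq gene start, on the gene's strand, from RefSeq on build GRCm38.p6. The Nt5e window is chr9:88327359-88327608 on the plus strand and the Dpp4 window is chr2:62412232-62412481 on the minus strand. Capitals mark the GC box (GGGCGG or CCGCCC).
Nt5e: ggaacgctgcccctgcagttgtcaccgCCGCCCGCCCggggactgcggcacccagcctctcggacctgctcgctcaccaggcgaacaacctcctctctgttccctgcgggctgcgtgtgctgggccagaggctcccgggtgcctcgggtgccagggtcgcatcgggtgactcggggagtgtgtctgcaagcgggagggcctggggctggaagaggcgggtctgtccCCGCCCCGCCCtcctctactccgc
Dpp4: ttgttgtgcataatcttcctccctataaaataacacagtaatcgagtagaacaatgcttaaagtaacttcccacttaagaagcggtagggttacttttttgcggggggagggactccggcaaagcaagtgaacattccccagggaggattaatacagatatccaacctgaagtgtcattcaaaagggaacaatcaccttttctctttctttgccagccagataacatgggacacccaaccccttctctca
The Nt5e window held 4 GC box matches, which overlap within 2 runs, and had a GC content of 72.0%. The Dpp4 window held none and had a GC content of 43.6%. A GC box was present in 32.7% of 32851 promoter windows of the same length. The cyclic AMP response element (TGACGTCA, in 1.55% of windows) and the hypoxia response core (ACGTG or CACGT, in 16.6%) were searched for on both strands and had no match in either window. Of the 9 genes, 8 had a window in the RefSeq table, and none of their windows held the cyclic AMP response element. These matches describe letters only.

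The libraries held between 31952873 and 40638685 counts. Fabp7 had 0 counts in 9 libraries and 3, 1 and 1 counts in the T cells with the control partner for 48 h, so the knockdown in the partner could not be checked from T cell RNA. All 14 T cell markers were detected, with summed levels of 3863 to 3982 CPM (counts relative to library size, TMM-scaled) with shFabp7 and 3780 to 3945 CPM with the control partner at 48 h, and 4957 to 5176 CPM with shFabp7 and 4947 to 5037 CPM with the control partner at 24 h. Among markers of other cells, the neutrophil list summed to 3.04 to 4.02 CPM with shFabp7 and 4.91 to 9.51 CPM with the control partner at 48 h. Of its 5 tested genes 3 passed the test at 48 h, all lower, and Retnlg was at 0 in every group. At 24 h the neutrophil sums were 5.97 to 6.76 CPM with shFabp7 and 5.96 to 10.7 CPM with the control partner, and 1 of the 5 genes, S100a9, passed as lower. The B cell list summed to 21.6 to 23.2 CPM with shFabp7 and 21.5 to 25.5 CPM with the control partner at 48 h, with none of 9 tested genes called. The epithelial list summed to 4.70 to 6.10 CPM with shFabp7 and 6.98 to 7.60 CPM with the control partner at 48 h, and to 10.0 to 10.7 CPM with shFabp7 and 11.3 to 12.4 CPM with the control partner at 24 h. The fibroblast and endothelial list summed to 68.4 to 75.7 CPM with shFabp7 and 81.7 to 87.9 CPM with the control partner at 48 h, and to 87.5 to 91.0 CPM with shFabp7 and 102 to 118 CPM with the control partner at 24 h. Most of it was Pecam1, which is also found on leukocytes and was the gene of this list called, as lower, at each time. Of the tested genes of the plasma cell, monocyte, dendritic cell, natural killer, erythroid and epithelial lists, at most 1 per list was called between partners at 48 h and none at 24 h. The part of these cells in the results below was not tested.

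Set against the control partner, the shFabp7 partner went with less Nt5e and Dpp4 transcript at both times, less Entpd1 at 24 h and slightly more Adora2a at both times. The calls of Dpp4 at 24 h and of Adora2a at both times depended on the processing and on single libraries, as given below. At 48 h, 4 of the 9 genes passed an adjusted p of 0.05 (edgeR quasi-likelihood test, adjusted over all genes tested), 2 higher and 2 lower, while 31.6% of all tested genes passed. At 24 h, 4 passed, 1 higher and 3 lower, against 10.9% of all tested genes. The libraries of the 2 partners did not overlap in 5 of the 9 genes at 48 h, against 44.0% of all genes, and in 4 of the 9 at 24 h, against 27.5%. The median log2 fold change of the 9 genes was 0.05 at 48 h and -0.07 at 24 h, beside 0.01 and -0.0041 over all tested genes. In these bulk libraries, fewer cells of a type and less RNA per cell cannot be told apart.

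**Figure D1:**
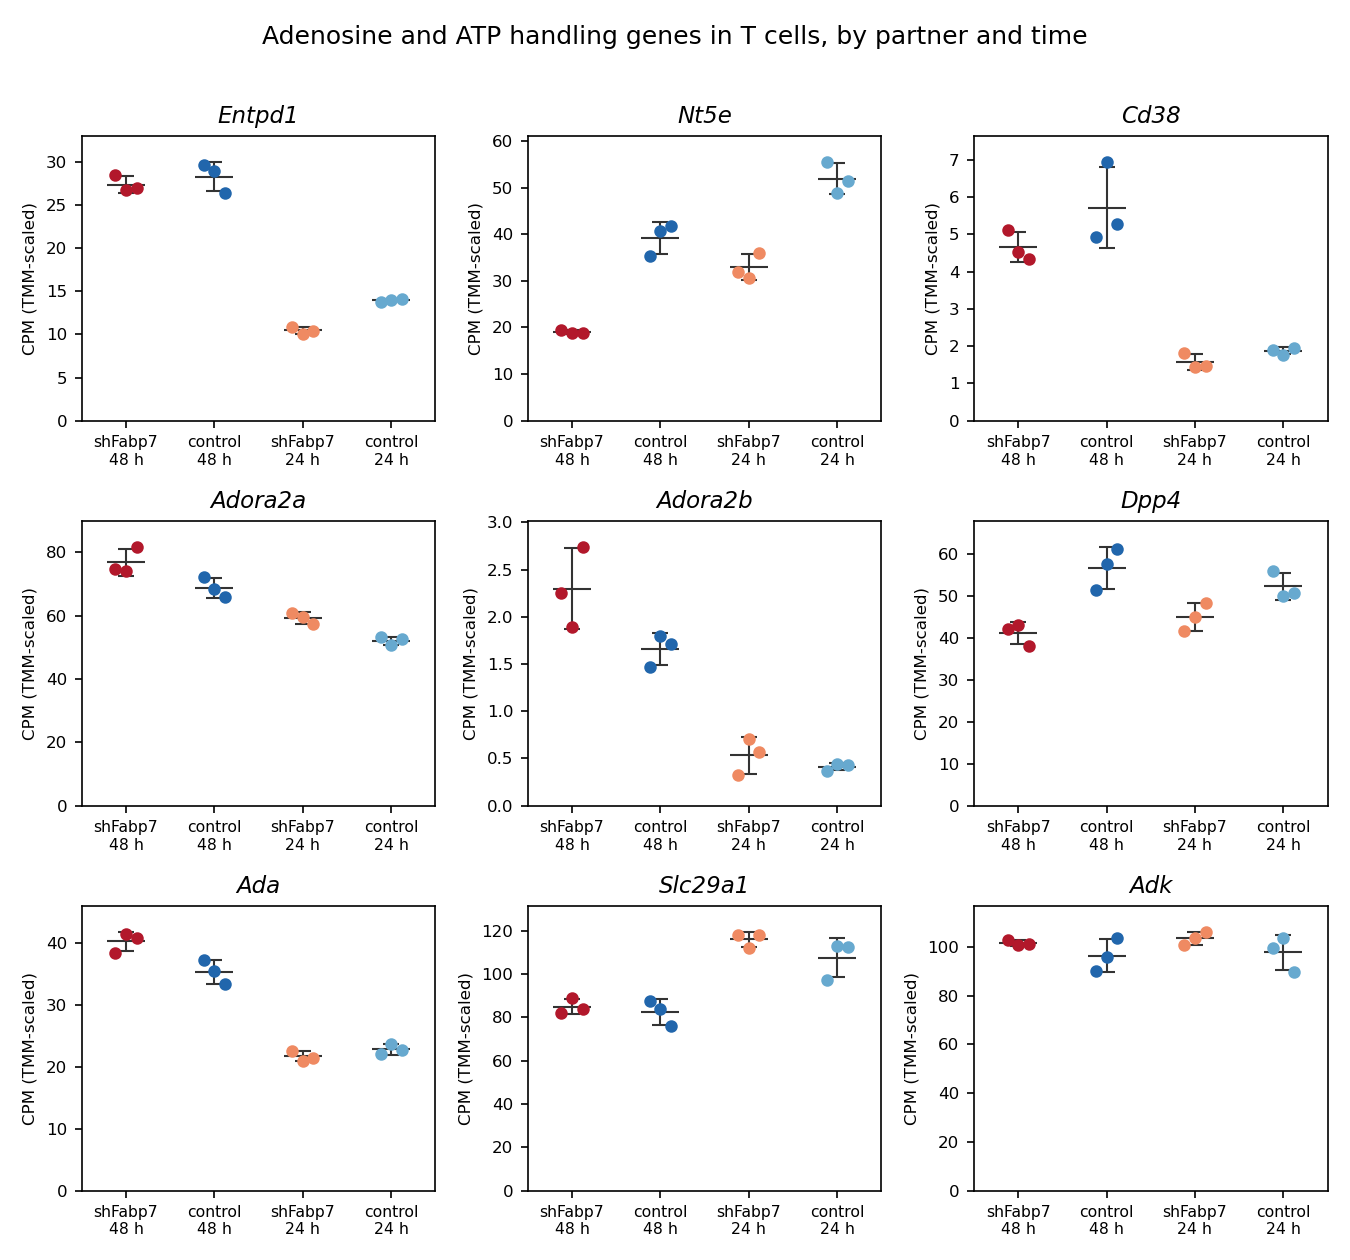
Level of each of the 9 genes in every library (CPM, TMM-scaled, linear axes from 0). Points are single libraries, horizontal bars and error bars are the mean and SD of the 3 libraries of a group, and groups run from shFabp7 at 48 h on the left to the control partner at 24 h on the right. Nt5e with shFabp7 at 48 h lay between 18.8 and 19.5 CPM, below the other 9 libraries, whereas Entpd1 was separated mainly by time.

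Entpd1, the enzyme of the first step, was lower with shFabp7 at 24 h and level with the control partner at 48 h. It had 28.4, 26.7 and 26.9 CPM with shFabp7 and 29.6, 28.9 and 26.3 CPM with the control partner at 48 h. The groups overlapped, and the log2 fold change was -0.05 ± 0.07 (SE, n = 3 libraries per group; edgeR adjusted p = 0.662). At 24 h it had 10.9, 10.1 and 10.4 CPM with shFabp7 and 13.8, 14 and 14.1 CPM with the control partner. Every shFabp7 library lay below every control library at 24 h, a log2 fold change of -0.42 ± 0.08 (edgeR adjusted p = 0.00121). The partner effect at 48 h minus that at 24 h was 0.37 ± 0.11 on the log2 scale (interaction contrast, edgeR adjusted p = 0.0363). This difference lost its call when any library but control replicate 1 at 48 h was left out, with adjusted p-values up to 0.203 (without shFabp7 replicate 2 at 24 h). It was also lost under RLE scaling (adjusted p = 0.0514), upper-quartile scaling (0.103), library totals (0.0745) and without the filter (0.126).

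Nt5e, which makes adenosine from AMP, was the member with the largest partner difference at each time. At 48 h it had 19.5, 18.8 and 18.9 CPM with shFabp7 and 35.4, 40.6 and 41.8 CPM with the control partner. The highest shFabp7 library was well under the lowest control library, and Nt5e fell by 1.04 ± 0.07 on the log2 scale with shFabp7 (edgeR adjusted p = 4.73e-12), about 0.486-fold the control level. At 24 h it had 31.9, 30.7 and 36.0 CPM with shFabp7 and 55.6, 48.9 and 51.4 CPM with the control partner, again without overlap (0.634-fold). By p-value Nt5e ranked 4 among the 16945 genes at 48 h and 3 at 24 h. The partner effect at 48 h minus that at 24 h was -0.38 ± 0.10 on the log2 scale (edgeR adjusted p = 0.0207). That difference was no longer called without shFabp7 replicate 3 at 24 h (adjusted p = 0.0611), without shFabp7 replicate 2 or 3 at 48 h (0.0565 and 0.0541) or without control replicate 2 or 3 at 48 h (0.0607 and 0.0723). Over the 9 genes 2 passed for the change of the partner effect, Entpd1 and Nt5e with opposite signs, against 5.60% of all tested genes.

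Cd38, the NAD-consuming ectoenzyme, was among the low members. It had 5.11, 4.53 and 4.32 CPM with shFabp7 and 4.93, 6.95 and 5.26 CPM with the control partner at 48 h, and 1.83, 1.44 and 1.47 CPM with shFabp7 against 1.91, 1.77 and 1.96 CPM with the control partner at 24 h. The groups overlapped at both times, and the log2 fold changes were -0.29 ± 0.15 at 48 h and -0.25 ± 0.20 at 24 h (edgeR adjusted p = 0.137 and 0.465).

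Of the receptors, Adora2a was abundant and Adora2b scarce. Adora2a had 74.9, 74.1 and 81.9 CPM with shFabp7 and 72.2, 68.3 and 66.1 CPM with the control partner at 48 h. It had 60.9, 59.7 and 57.3 CPM with shFabp7 and 53.2, 50.8 and 52.5 CPM with the control partner at 24 h. All shFabp7 libraries lay above the control libraries of the same time, by log2 fold changes of 0.16 ± 0.06 at 48 h (edgeR adjusted p = 0.0243) and 0.18 ± 0.06 at 24 h (edgeR adjusted p = 0.0311). These differences of about 1.12-fold and 1.14-fold are small, and the calls did not hold under upper-quartile scaling (adjusted p = 0.322 at 48 h and 0.0631 at 24 h) or library totals (0.307 and 0.103). At 48 h the call was also lost without shFabp7 replicate 3 (adjusted p = 0.179) or control replicate 2 or 3 (0.0721 and 0.114), without the filter (0.0826) and with the 24 h libraries kept out of the model (0.0648). At 24 h it was lost without shFabp7 replicate 1 or 2 (adjusted p = 0.0810 and 0.0541).

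Adora2b, a receptor that responds to higher adenosine concentrations, had 95, 67 and 99 counts with shFabp7 and 54, 70 and 68 counts with the control partner at 48 h. As levels these were 2.26, 1.90 and 2.74 CPM with shFabp7 and 1.47, 1.8 and 1.71 CPM with the control partner. The libraries did not overlap at 48 h, yet the log2 fold change of 0.47 ± 0.23 did not pass (edgeR adjusted p = 0.131). At 24 h each library held 10 to 21 counts with shFabp7 and 12 to 16 with the control partner, a depth at which the log2 fold change had an SE of 0.35. The other adenosine receptor genes were below the filter: Adora1 had 0 counts in all 12 libraries, which allows up to 0.0713 to 0.101 CPM per library (3 counts, counting error only), and Adora3 had at most 10 counts in a library.

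Dpp4, the surface peptidase, had 42.2, 43.2 and 38.1 CPM with shFabp7 and 51.4, 57.6 and 61.3 CPM with the control partner at 48 h. The groups were separate, and Dpp4 fell by 0.46 ± 0.07 on the log2 scale with shFabp7 (edgeR adjusted p = 2.55e-06). At 24 h it had 41.6, 45.0 and 48.3 CPM with shFabp7 and 56.0, 50.1 and 50.8 CPM with the control partner. The highest shFabp7 library came close to the lowest control library at 24 h, and the log2 fold change was -0.22 ± 0.07 (edgeR adjusted p = 0.0396). The 24 h call was lost with DESeq2 (adjusted p = 0.0578), with RLE scaling (0.0629), without shFabp7 replicate 1 or 2 (0.290 and 0.134) and without control replicate 1 or 3 (0.266 and 0.0714). The partner effect at 48 h minus that at 24 h was -0.25 ± 0.10, which was not called (edgeR adjusted p = 0.138). It passed without the filter (0.0495), without shFabp7 replicate 1 at 24 h (0.0461) and without control replicate 1 at 48 h (0.0232).

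**Figure D2:**
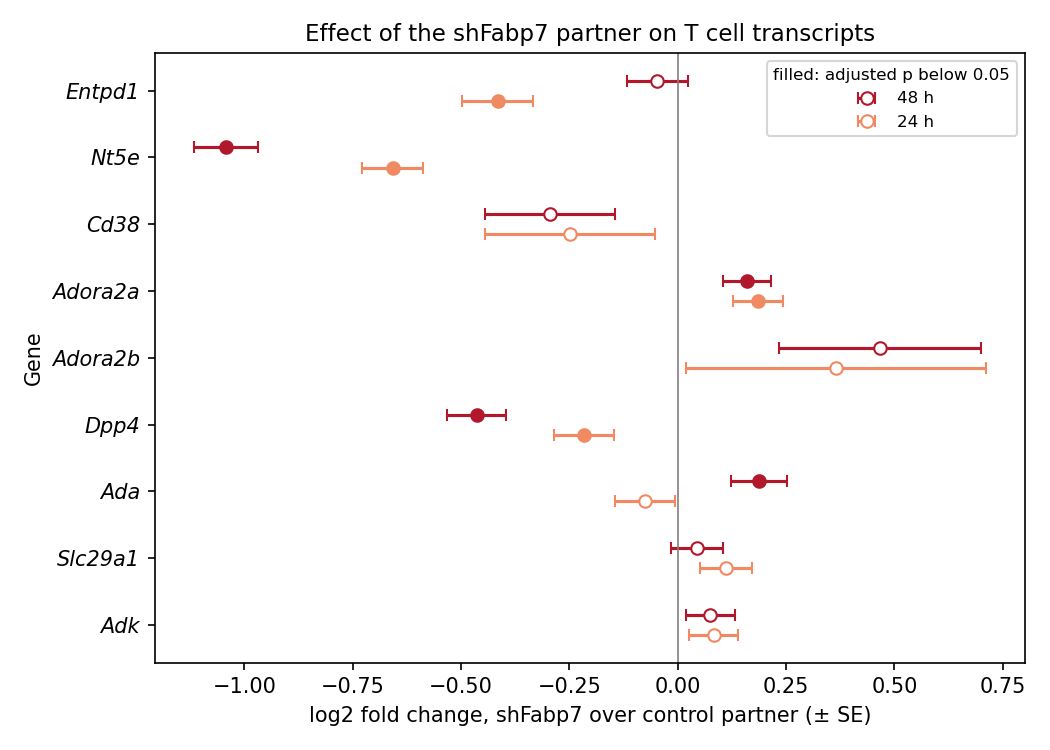
Log2 fold change of each gene with the shFabp7 over the control partner (horizontal axis), at 48 h (upper mark of each pair) and at 24 h (lower mark), with its SE from edgeR. Filled marks passed an adjusted p of 0.05: Nt5e, Dpp4, Adora2a and Ada at 48 h, and Nt5e, Entpd1, Dpp4 and Adora2a at 24 h.

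Of the genes that remove adenosine, Ada was slightly higher with shFabp7 at 48 h. Ada, adenosine deaminase, had 38.4, 41.5 and 40.7 CPM with shFabp7 and 37.1, 35.4 and 33.3 CPM with the control partner at 48 h, a log2 fold change of 0.19 ± 0.06 (edgeR adjusted p = 0.0230). At 24 h it had 22.6, 21 and 21.4 CPM with shFabp7 and 22.0, 23.7 and 22.7 CPM with the control partner, where the groups overlapped (log2 -0.07 ± 0.07, edgeR adjusted p = 0.550). The 48 h call of Ada was lost under upper-quartile scaling (adjusted p = 0.230), library totals (0.217) and without the filter (0.0743). It was also lost without shFabp7 replicate 2 or 3 (adjusted p = 0.106 and 0.0728) and without control replicate 2 or 3 (0.0556 and 0.127). The partner effect at 48 h minus that at 24 h was 0.26 ± 0.09 for Ada (edgeR adjusted p = 0.100), and it was called without control replicate 1 at 48 h (adjusted p = 0.0400).

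Slc29a1, the equilibrative nucleoside transporter, and Adk, adenosine kinase, differed little by partner. Slc29a1 had 82.2 to 89.1 CPM with shFabp7 and 75.8 to 87.6 CPM with the control partner at 48 h, and 112 to 118 CPM with shFabp7 and 97.3 to 113 CPM with the control partner at 24 h. Adk had 101 to 103 CPM with shFabp7 and 90.1 to 104 CPM with the control partner at 48 h, and 101 to 106 CPM with shFabp7 and 89.9 to 104 CPM with the control partner at 24 h. Both genes overlapped between partners at both times, with log2 fold changes of 0.05 ± 0.06 and 0.11 ± 0.06 for Slc29a1 and 0.08 ± 0.06 and 0.08 ± 0.06 for Adk at 48 h and 24 h. Their edgeR adjusted p-values were 0.614 and 0.248 for Slc29a1 and 0.339 and 0.388 for Adk.

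Time moved more of these genes than the partner did, and in the same directions with either partner. Entpd1, Cd38, Adora2a, Adora2b and Ada were higher at 48 h than at 24 h, and Nt5e and Slc29a1 were lower. With each partner 7 of the 9 genes passed, 5 higher and 2 lower, where 66.1% of all tested genes passed with shFabp7 and 67.7% with the control partner. The 48 h and 24 h libraries were separate in 7 of the 9 genes with each partner, against 71.4% of all genes with shFabp7 and 68.6% with the control partner, so these shares lay near those of all genes. The median log2 fold change of the 9 genes was 0.38 with shFabp7 and 0.40 with the control partner, beside 0.06 and 0.04 over all tested genes. The comparisons by time use the same libraries as those by partner. Markers of other cells moved with time as well. The dendritic cell list summed to 34.3 to 36.5 CPM at 48 h and 11.3 to 12.1 CPM at 24 h with shFabp7, and to 32.7 to 37.2 CPM at 48 h and 10.9 to 13.2 CPM at 24 h with the control partner. Of its 8 listed genes, 4 passed the filter. With each partner 3 of these 4 rose (Batf3, Itgax and Zbtb46) and 1 fell (Flt3). Cd209a was at 0 in every group, and Siglech was at 0 with either partner at 48 h. The B cell list summed to 21.6 to 23.2 CPM at 48 h and 13.9 to 18.2 CPM at 24 h with shFabp7, and to 21.5 to 25.5 CPM at 48 h and 15.9 to 17.7 CPM at 24 h with the control partner. Of its 9 tested genes, 4 rose and 2 fell with shFabp7, and 3 rose and 1 fell with the control partner. With shFabp7 the monocyte and macrophage list summed to 21.5 to 21.9 CPM at 48 h and 15.6 to 17.6 CPM at 24 h. With the control partner this list summed to 21.9 to 24.5 CPM and 17.5 to 19.4 CPM. Of its 8 tested genes, 3 rose with each partner, 3 fell with shFabp7 and 2 with the control partner. The erythroid and platelet sums also rose, with 3 of 4 tested genes up with shFabp7, 2 with the control partner and none down. Sums of some other lists went down. The T cell, epithelial, and fibroblast and endothelial sums were lower at 48 h with either partner, as given above. Of 5 tested fibroblast and endothelial genes, however, 3 rose and 2 fell with shFabp7, and 2 rose and 2 fell with the control partner. Their median log2 fold change was 1.00 with shFabp7 and 0.56 with the control partner. Of 4 tested epithelial genes, 2 fell with shFabp7 and 1 with the control partner, and none rose. Their medians were -0.05 and 0.14. The neutrophil sums were lower at 48 h with shFabp7. The part of all these cells in the changes over time was not tested.

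Entpd1 rose 2.61-fold at 48 h over 24 h with shFabp7 (log2 1.39 ± 0.08, edgeR adjusted p = 4.30e-17) and 2.02-fold with the control partner (1.02 ± 0.07, edgeR adjusted p = 4.17e-14). Nt5e fell by 0.79 ± 0.07 on the log2 scale with shFabp7 (edgeR adjusted p = 3.17e-11) and by 0.40 ± 0.07 with the control partner (edgeR adjusted p = 4.49e-06). The pair thus moved in opposite directions. Adjusted for exon length, the ratio of Nt5e to Entpd1 within a library was 0.446, 0.456 and 0.455 with shFabp7 and 0.775, 0.912 and 1.03 with the control partner at 48 h. At 24 h the ratio was 1.90, 1.97 and 2.24 with shFabp7 and 2.61, 2.26 and 2.37 with the control partner. Every library at 24 h thus carried more Nt5e than Entpd1 transcript per length, and every shFabp7 library at 48 h carried less. The control libraries at 48 h lay between 0.775 and 1.03, and their order depended on the lengths used. By CPM alone they all held more Nt5e (35.4 to 41.8 CPM) than Entpd1 (26.3 to 29.6 CPM).

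Foxp3, the defining factor of regulatory T cells, which are known for high Entpd1 and Nt5e, was far lower at 48 h than at 24 h. It averaged 28.2 ± 2.31 CPM with shFabp7 and 27.6 ± 5.76 CPM with the control partner at 48 h, and 140 ± 3.76 CPM with shFabp7 and 141 ± 6.90 CPM with the control partner at 24 h (SD, n = 3 libraries each). Its log2 fold change over time was -2.32 ± 0.11 with shFabp7 and -2.36 ± 0.11 with the control partner (edgeR adjusted p = 4.95e-11 and 3.62e-11). Over the 10 regulatory T cell genes, 3 rose and 5 fell over time with shFabp7, and 2 rose and 6 fell with the control partner. Izumo1r, a surface marker of these cells, rose over time with either partner (log2 0.70 ± 0.05 with shFabp7 and 0.87 ± 0.05 with the control partner). Between partners Foxp3 was at 0.03 ± 0.11 at 48 h and -0.01 ± 0.10 at 24 h (edgeR adjusted p = 0.876 and 0.961). Summed over 10 regulatory T cell genes, levels were 1840 to 1886 CPM with shFabp7 and 1653 to 1690 CPM with the control partner at 48 h, and 1708 to 1757 CPM with shFabp7 and 1652 to 1729 CPM with the control partner at 24 h. Between partners, 1 of the 10 was higher and 4 were lower at 48 h and 1 was lower at 24 h. The higher sum with shFabp7 at 48 h came from Il2ra, the interleukin 2 receptor alpha chain that activated T cells also carry, at 995 ± 27.1 CPM with shFabp7 and 725 ± 19 CPM with the control partner (SD, n = 3), while Izumo1r, Lrrc32, Itgae and Ikzf2 were the genes that fell. The part of regulatory T cells in the Entpd1 and Nt5e levels was not tested.

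Cd38 rose 2.95-fold with shFabp7 and 3.04-fold with the control partner (log2 1.56 ± 0.18 and 1.60 ± 0.17, edgeR adjusted p = 1.74e-09 and 2.43e-10). Adora2b, the scarcer receptor, rose 4.31-fold with shFabp7 and 4.02-fold with the control partner (log2 2.11 ± 0.28 and 2.01 ± 0.29). Its level at 24 h rested on 50 counts over the 3 shFabp7 libraries and 43 over the 3 control libraries. Adora2a rose 1.30-fold with shFabp7 and 1.32-fold with the control partner, and Ada 1.86-fold with shFabp7 and 1.55-fold with the control partner, with no overlap between times. Slc29a1 fell by 0.45 ± 0.06 with shFabp7 and by 0.39 ± 0.06 with the control partner on the log2 scale (edgeR adjusted p = 4.58e-08 and 8.06e-07).

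Dpp4 and Adk did not pass for time. Dpp4 had a log2 fold change of -0.13 ± 0.07 with shFabp7 and 0.12 ± 0.07 with the control partner (edgeR adjusted p = 0.106 and 0.117). Under library totals these values were 0.02 with shFabp7 (adjusted p = 0.814) and 0.31 with the control partner (adjusted p = 2.46e-04). With shFabp7 the Dpp4 change over time was called, as lower, with DESeq2 (adjusted p = 0.0476), RLE scaling (0.0338), no filter (0.0353), a fit on the compared groups alone (0.0339) and without replicate 1 at 24 h (0.0161). With the control partner it was called, as higher, under upper-quartile scaling (adjusted p = 0.00541) and without replicate 1 at 24 h (0.0324) or at 48 h (0.0153). Adk had log2 values of -0.03 ± 0.06 with shFabp7 and -0.02 ± 0.06 with the control partner.

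**Figure D3:**
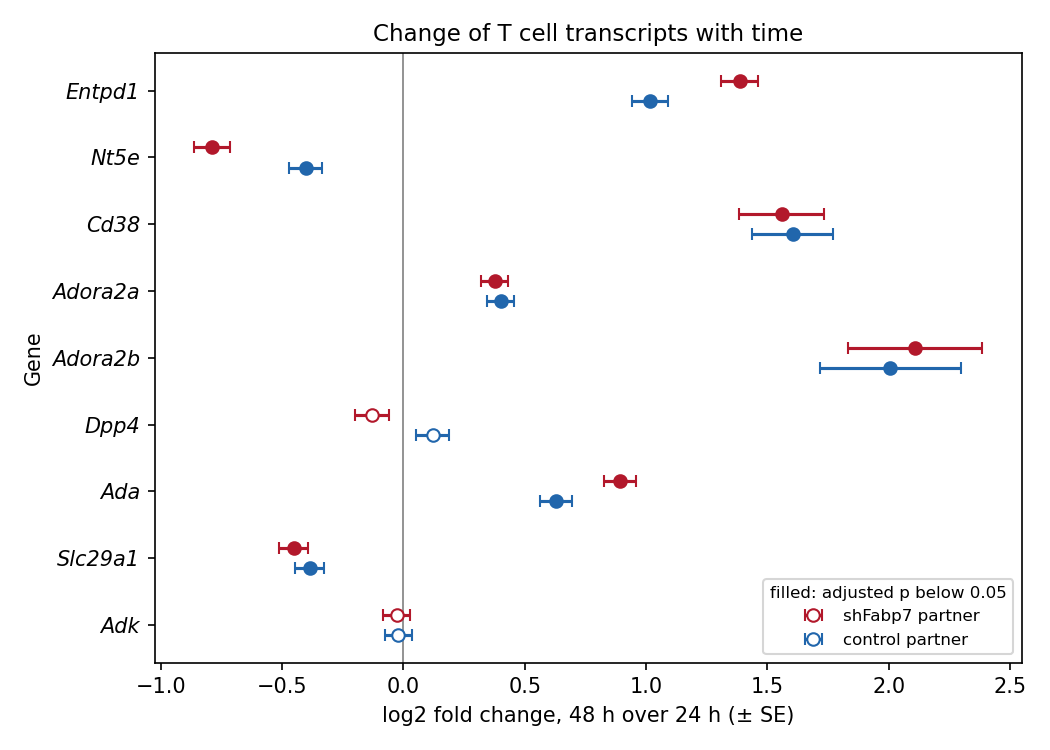
Log2 fold change of each gene at 48 h over 24 h (horizontal axis) with the shFabp7 partner (upper mark of each pair) and the control partner (lower mark), with its SE from edgeR. Filled marks passed an adjusted p of 0.05, and Adora2b stood farthest right at 2.11 and 2.01, while Nt5e stood farthest left with shFabp7 at -0.79.

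Per kilobase of exon, the order of the 9 genes differed between times. At 48 h with shFabp7 it ran from Adora2a (25.1 CPM per kb) through Slc29a1 (21.2), Ada (20.1), Adk (11.9), Dpp4 (6.52), Entpd1 (4.90), Nt5e (2.22) and Adora2b (1.25) to Cd38 (1.20). Neighbours whose libraries overlapped there were Slc29a1 with Ada and Adora2b with Cd38. With the control partner at 48 h, Adora2a (22.5 CPM per kb) overlapped with Slc29a1 (20.6), Entpd1 (5.07) overlapped with Nt5e (4.56), and Cd38 (1.47) stood above Adora2b (0.901). At 24 h Slc29a1 led with 29.0 CPM per kb with shFabp7 and 26.9 with the control partner, followed by Adora2a at 19.4 with shFabp7 and 17 with the control partner. Nt5e lay above Entpd1 at 24 h, at 3.82 against 1.88 CPM per kb with shFabp7 and 6.04 against 2.50 with the control partner. The lengths came from GENCODE M21 and may differ from the transcripts these cells used.

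Among the genes listed around these 9, the ATP-gated ion channel P2rx7 was lower with shFabp7 at both times, and the Dpp4 relatives Prep and Dpp9 were higher at both times. The lists were written from general knowledge of the pathway, with earlier results of these libraries known. Their shares here and below are therefore a description. Each count of a list below stands beside 31.6% of all tested genes called at 48 h and 10.9% at 24 h. Of their 101 counted symbols, 82 were tested. At 48 h 37 of the 82 passed (45.1%, against the 31.6% of all genes given above), 27 higher and 10 lower with shFabp7. Under upper-quartile scaling and under library totals this became 15 higher and 18 lower. At 24 h 19 passed (23.2%), 8 higher and 11 lower, and the split was 11 to 8 with RLE scaling, 15 to 8 with DESeq2, 6 to 13 with upper-quartile scaling and 4 to 13 with library totals. Without control replicate 1 at 24 h 6 passed, and without shFabp7 replicate 1 at 24 h 7 passed. The lists' median log2 fold change was 0.09 at 48 h and -0.03 at 24 h.

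P2rx7, which opens in response to high extracellular ATP, had 75.5, 81.0 and 72.7 CPM with shFabp7 and 111, 109 and 104 CPM with the control partner at 48 h, and 34.5, 34.4 and 39.1 CPM with shFabp7 and 57.6, 49.5 and 53.6 CPM with the control partner at 24 h. The partners were separate at both times. P2rx7 fell by 0.50 ± 0.06 at 48 h and by 0.57 ± 0.06 at 24 h on the log2 scale (edgeR adjusted p = 6.56e-08 and 1.11e-06). Art2b, which modifies surface proteins with ADP-ribose taken from NAD and is known in mouse T cells to act on P2rx7, fell by 0.66 ± 0.09 and 0.57 ± 0.10 (edgeR adjusted p = 3.52e-07 and 3.38e-04). Reads of Art2b may be shared with its close relative Art2a, so its counts are uncertain. Of the 8 tested ATP and nucleotide receptors, 1 was higher and 2 were lower at 48 h, and 1 was lower at 24 h. P2rx4, a related channel, fell by 0.37 ± 0.07 on the log2 scale at 48 h, and P2ry1, an ADP receptor, rose to 5.25 ± 0.682 CPM with shFabp7, against 3.28 ± 0.203 CPM with the control partner (SD, n = 3; log2 0.68 ± 0.16, edgeR adjusted p = 9.90e-04).

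Of 11 tested genes listed as other ectonucleotidases and NAD-consuming ectoenzymes, 2 were higher and 4 lower at 48 h, and 2 were lower at 24 h. The list is not confined to the cell surface, since it holds Entpd5. Alpl, an alkaline phosphatase that can also free adenosine from AMP, rose to 2.45 ± 0.227 CPM with shFabp7, against 1.07 ± 0.318 CPM with the control partner at 48 h (SD, n = 3; log2 1.20 ± 0.24, edgeR adjusted p = 1.84e-04). Acpp, an acid phosphatase with the same activity on AMP, fell by 0.48 ± 0.08 at 24 h on the log2 scale (edgeR adjusted p = 2.07e-04). Entpd5, a nucleoside diphosphatase of the endoplasmic reticulum, fell by 0.38 ± 0.07 at 48 h (edgeR adjusted p = 2.65e-05). Of 7 tested ATP release channels and carriers, Gja1, a connexin, rose by 0.58 ± 0.15 and Slc17a9, which loads ATP into vesicles, fell by 0.20 ± 0.06 on the log2 scale at 48 h. At 24 h Panx1, a large-pore channel, was the called one (-0.16 ± 0.05, edgeR adjusted p = 0.0458), and it lost that call with DESeq2 (0.0581), with RLE scaling (0.0988), without the filter (0.181) and without any single library of the 24 h groups (up to 0.251, without shFabp7 replicate 2).

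Of 4 tested nucleoside transporters besides Slc29a1, the concentrative transporter Slc28a2 fell by 0.23 ± 0.06 at 48 h and by 0.25 ± 0.07 at 24 h on the log2 scale (edgeR adjusted p = 0.00531 and 0.0120). At 24 h that call was lost without shFabp7 replicate 1 (0.050 when rounded) or 3 (0.0689) or control replicate 1 or 2 (0.0896 and 0.0629). Slc29a2, the closest relative of Slc29a1, rose by 0.50 ± 0.13 at 48 h (edgeR adjusted p = 0.00375). Of 21 tested enzymes of purine nucleosides and AMP inside the cell, 11 were higher and 1 was lower at 48 h, and 4 were higher and 1 was lower at 24 h. Under upper-quartile scaling and library totals the 48 h counts were 6 higher and 2 lower. Ak4, an adenylate kinase of mitochondria, rose by 0.56 ± 0.09 at 48 h, Pnp, purine nucleoside phosphorylase, by 0.50 ± 0.08 and Ampd2, an AMP deaminase, by 0.40 ± 0.06 (edgeR adjusted p = 4.05e-06, 4.28e-06 and 5.41e-06). Reads of Pnp may be shared with its near-identical copy Pnp2. At 24 h the adenine salvage enzyme gene Aprt rose by 0.24 ± 0.06 and Ampd2 by 0.21 ± 0.06. The Ampd2 call at 24 h was lost under library totals (0.0669) and without replicate 1 of shFabp7 (0.0548) or of the control partner (0.0766).

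The cyclic AMP list, which acts below the adenosine receptors, had 9 of 25 tested genes higher and 1 lower at 48 h, and 2 higher and 5 lower at 24 h. The 48 h direction of this list depended on the scaling, with 2 higher and 8 lower under upper-quartile scaling and under library totals. At 48 h Prkar2a, a regulatory subunit of protein kinase A, rose by 0.42 ± 0.05 on the log2 scale, Crem, a transcription factor that responds to cyclic AMP, by 0.35 ± 0.06 and Gnas, the stimulatory G protein subunit, by 0.20 ± 0.05 (edgeR adjusted p = 2.36e-07, 1.89e-05 and 0.00204). The Gnas call was lost under upper-quartile scaling (0.0783) and library totals (0.0649). Crem had 135, 129 and 133 CPM with shFabp7 and 93.0, 107 and 112 CPM with the control partner at 48 h. At 24 h the anchoring protein gene Akap13 fell by 0.23 ± 0.05, the phosphodiesterase gene Pde4b by 0.21 ± 0.05 and the adenylate cyclase gene Adcy7 by 0.21 ± 0.05. Pde4b lost its call without shFabp7 replicate 1 or 2 (0.0614 and 0.0501) or control replicate 1 or 3 (0.0639 and 0.0591) at 24 h, and Adcy7 without shFabp7 replicate 1 or 2 (0.0896 and 0.0570) or control replicate 1 (0.0972).

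The relatives of Dpp4 that passed were higher with shFabp7, where Dpp4 was lower. Of 6 tested, 2 rose at each time and 4 were not called. Over all tested genes, 31.6% passed at 48 h and 10.9% at 24 h. The median log2 fold change of the 6 was -0.02 at 48 h (from -0.39 to 0.59) and 0.16 at 24 h. Those that rose were Prep and Dpp9, which are proline-specific peptidases inside the cell. Prep had 126 ± 2.53 CPM with shFabp7 and 83.6 ± 6.17 CPM with the control partner at 48 h (SD, n = 3; log2 0.59 ± 0.06, edgeR adjusted p = 3.10e-09). Dpp9 had 100.5 ± 2.42 CPM with shFabp7 and 68.9 ± 6.06 CPM with the control partner at 48 h (log2 0.54 ± 0.06, edgeR adjusted p = 1.14e-08). At 24 h the log2 fold changes were 0.20 ± 0.06 for Prep and 0.22 ± 0.06 for Dpp9 (edgeR adjusted p = 0.0260 and 0.0141). The 24 h call of Dpp9 was lost without control replicate 1 (0.0694). That of Prep was lost without replicate 1 of shFabp7 (0.125) or of the control partner (0.155), under upper-quartile scaling (0.0536) and under library totals (0.0816).

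**Figure D4:**
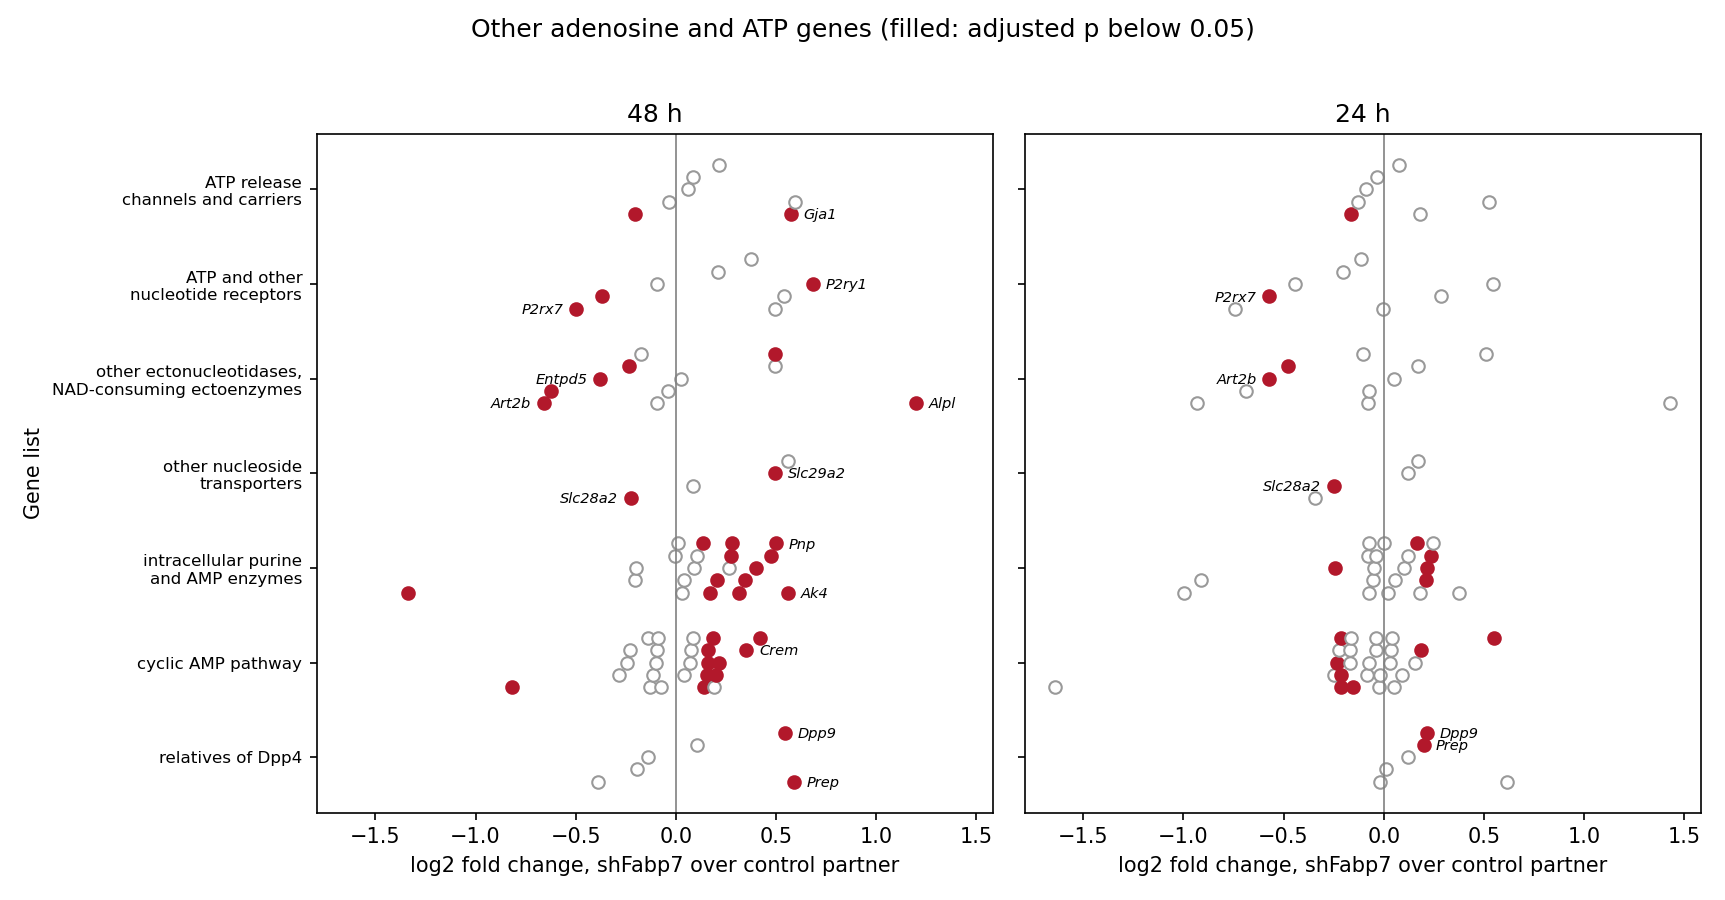
Log2 fold change with the shFabp7 over the control partner (horizontal axis) for the 82 tested genes of 7 pathway lists (rows), at 48 h (left) and 24 h (right). Each mark is a gene and filled marks passed an adjusted p of 0.05. At 48 h filled marks of the purine enzyme and cyclic AMP lists lay mostly to the right, 11 of 12 and 9 of 10 under TMM, where upper-quartile scaling and library totals gave 2 higher and 8 lower for the cyclic AMP list, and P2rx7 and Art2b lay to the left at both times.

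Over time, 65 of the 82 genes passed with each partner (79.3%, where 66.1% of all tested genes passed with shFabp7 and 67.7% with the control partner), 44 higher and 21 lower with shFabp7 and 40 higher and 25 lower with the control partner. P2rx7 rose at 48 h over 24 h by 1.08 ± 0.06 with shFabp7 and by 1.01 ± 0.06 with the control partner on the log2 scale (edgeR adjusted p = 1.30e-16 and 2.73e-16). In the same pair of comparisons, with shFabp7 and with the control partner, Enpp1, an ectoenzyme that cuts ATP to AMP, rose by 1.61 ± 0.09 and 1.63 ± 0.09. Gja1 rose by 2.15 ± 0.18 with shFabp7 and 1.48 ± 0.18 with the control partner, the deoxycytidine kinase gene Dck by 1.20 ± 0.06 with shFabp7 and 1.11 ± 0.06 with the control partner, and the adenylate cyclase gene Adcy6 by 1.37 ± 0.06 with shFabp7 and 1.07 ± 0.06 with the control partner. Slc29a2 fell by 1.37 ± 0.12 with shFabp7 and by 1.70 ± 0.12 with the control partner. Of the relatives of Dpp4, 4 of 6 fell with each partner and none rose (3 under upper-quartile scaling; 2 fell and 1 rose with shFabp7 and 3 fell with the control partner under library totals), with Dpp7, a lysosomal peptidase, at -0.83 ± 0.11 with shFabp7 and Dpp9 at -0.69 ± 0.06 with the control partner.

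For each of the 9 genes the closest patterns over the 12 libraries were sought among 11339 genes, as the Pearson correlation of log2 CPM. The libraries fall into 4 groups, so these values mostly reflect group means and carry no p-value. Nt5e was most like Inpp5k, a phosphoinositide phosphatase gene (r = 0.99), and Slamf6, a receptor of T cells (0.98). Dpp4 was most like Igip (0.96) and Rufy2 (0.95), Entpd1 like Zfp219 and Akip1 (0.99 each), and Cd38 like Gstt1 and Wdr76 (0.99 each). Adora2a was most like E2f3 and Pkp4 (0.98 each), Adora2b like Ehbp1 (0.98) and Galnt3 (0.98), and Ada like C1qtnf6 and Slc25a12 (0.998 and 0.996). Slc29a1 was most like Twnk and Rplp2 (0.98 each) and Adk, which varied least by group, like Naa20 and Sec61g (0.91 each).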

How the data were processed

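RNA had been sequenced from mouse spleen T cells in 12 libraries, 3 for each of 4 groups. The authors deposited unnormalized counts of reads for each symbol. The submitters' processing notes name build GRCm39 and the tools HTSeq 0.6.1p1, TopHat2 2.0.13 and CASAVA 1.8.2. Their settings, strand mode and annotation are not given in the sources used here. Without strand, reads of antisense or overlapping neighbours cannot be told apart. GENCODE M21 lists such neighbours for Entpd1, Cd38, Dpp4, Slc29a1 and Adk, and none for Nt5e, Adora2a, Adora2b or Ada.

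Genes were kept with filterByExpr (minimum count 10, minimum total 15), and libraries of 31952873 to 40638685 counts were scaled by TMM. edgeR 4.0.16 (quasi-likelihood, robust, 1 coefficient per group, all 12 libraries, R 4.3.3) tested 5 comparisons with Benjamini-Hochberg adjustment over 16945 genes at 0.05. Errors are the SE for fold changes and the SD for CPM. Replicates differed beyond counting noise (chi-square over degrees of freedom 4.20 to 13.9), and none was taken as a duplicate.

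The 9 genes and all lists were chosen with earlier results of these data known. Of the pathway lists, up to 3 called genes of smallest adjusted p per list with a mean of at least 1 CPM were named for the partner effects, and the leading one per list, where named, for time. Tools and scalings tried besides were DESeq2 1.42.0, RLE, upper-quartile and library-total scaling, no filter, a stricter filter, the compared groups alone, a replicate block and the omission of each library. Reference lengths and promoters were of build GRCm38 and were matched by symbol. A listed pathway gene that the naming rule selects is not reported here.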

Additional observations from a re-analysis of the deposited data

Results flagged for a closer look

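For the genes below the partner effect (shFabp7 over control partner, log2) differed between times by the interaction contrast, which tests the 48 h effect minus the 24 h effect. Nt5e had a difference of -0.38 ± 0.10 (edgeR adjusted p = 0.0207), with partner effects of -1.04 at 48 h and -0.66 at 24 h. Entpd1 had 0.37 ± 0.11 (edgeR adjusted p = 0.0363), with partner effects of -0.05 at 48 h and -0.42 at 24 h.

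Among the 82 tested pathway genes 9 passed (11%, against 5.60% of all tested genes), 7 with a positive and 2 with a negative difference. Of all genes that passed, 79.0% had a positive difference, against 48.9% under upper-quartile scaling and 61.9% under library totals. With single libraries left out, the share ran from 50.5% (without control replicate 2 at 24 h) to 83.5% (without control replicate 3 at 48 h). The pathway genes named by the rule were the following. Crem had 0.43 ± 0.09 (edgeR adjusted p = 0.00238), with 133 ± 3.22 CPM with shFabp7 and 104 ± 9.68 CPM with the control partner at 48 h, and 57.7 ± 3.10 CPM with shFabp7 and 61.0 ± 3.69 CPM with the control partner at 24 h (SD, n = 3). Ak4 had 0.60 ± 0.13 (edgeR adjusted p = 0.00424) and lost its call without shFabp7 replicate 3 at 24 h (0.0546). Prep had 0.39 ± 0.08 (edgeR adjusted p = 0.00432) and lost it without shFabp7 replicate 2 or 3 at 24 h (0.0580 and 0.0613). Pde4b had 0.29 ± 0.07 (edgeR adjusted p = 0.0140), Dpp9 0.33 ± 0.08 (edgeR adjusted p = 0.0147) and Entpd5 -0.30 ± 0.09 (edgeR adjusted p = 0.0436). Pde4b lost its call without any 1 of shFabp7 replicates 1 to 3 or control replicates 1 and 3 at 24 h (up to 0.124), under upper-quartile scaling (0.0683) and without the filter (0.0634). Dpp9 lost it without any 1 of shFabp7 replicates 1 to 3 or control replicates 2 and 3 at 24 h or control replicate 3 at 48 h (up to 0.144) and under upper-quartile scaling (0.0591). Entpd5 lost it without shFabp7 replicate 1 or 3 or control replicate 2 at 24 h, or any 1 of shFabp7 replicates 1 to 3 or control replicate 3 at 48 h (up to 0.168). Prkar2b, another regulatory subunit of protein kinase A, had -0.83 ± 0.22 (edgeR adjusted p = 0.0175, or 0.0649 without control replicate 2 at 48 h). Ak3 had 0.25 ± 0.08 (edgeR adjusted p = 0.0467) and kept its call only without control replicate 1 at 48 h among the 12 omissions, with adjusted p-values up to 0.306. It was also lost under RLE scaling (0.0753), upper-quartile scaling (0.169), library totals (0.112) and without the filter (0.227). Over all 12 omissions the number of pathway genes called lay between 2 (without shFabp7 replicate 3 at 24 h) and 14 (without control replicate 1 at 48 h).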

How the results depend on the processing

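Nt5e at both times, Dpp4 at 48 h and Entpd1 at 24 h kept their direction and call for the partner under every alternative run, as did the 7 genes called over time with each partner. The members called at 48 h were 2 under upper-quartile scaling, library totals and no filter, all lower. For the change of the partner effect 1 was called under RLE, upper-quartile scaling and library totals, and 5 of the listed pathway genes under upper-quartile scaling. Library totals moved the median log2 change of all genes over time to 0.21 with shFabp7 and 0.23 with the control partner, and upper-quartile scaling moved it to 0.14 with the control partner. Relative to these shifts Nt5e and Slc29a1 were still lower. Of the genes called, 57.2% were higher at 24 h and 63.2% at 48 h, against 71.9 and 66.1% under RLE, 42.1 and 39.9% under upper-quartile scaling and 33.2 and 40.5% under library totals.

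Leaving out each library in turn, the genes called numbered 4300 to 5454 at 48 h, 949 to 2525 at 24 h, 319 to 1680 for the change of the partner effect, and 10612 to 10799 and 10908 to 11281 over time with shFabp7 and the control partner. Members called numbered 2 to 4, 2 to 4, 0 to 4, 7 to 8 and 7 to 8, and listed pathway genes 28 to 39, 6 to 20, 2 to 14, 61 to 67 and 59 to 69.

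Several values near 0 changed sign. For time with the control partner, Adk was 0.082 under upper-quartile scaling, 0.17 under library totals (called there) and 0.0089 with the stricter filter, and lay between -0.0758 and 0.0471 when a library was left out. With shFabp7 it was 0.0121 and 0.12 under the same scalings, and Dpp4 was 0.0204 under library totals. For the partner at 48 h Adk was -0.0115 and -0.0098 and Slc29a1 -0.0405 and -0.0387 under these scalings, and Slc29a1 lay between -0.0112 and 0.0905 when a library was left out. For the change of the partner effect the values with a library left out lay between -0.1058 and 0.0459 for Adk, -0.0963 and 0.0092 for Adora2a, -0.2045 and 0.2937 for Adora2b, and -0.1532 and 0.1187 for Cd38. The cause of these changes was not tested.

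Over all tested genes, samples with the same replicate number did not deviate together (correlations of -0.067 to 0.010). With 3 libraries per group this cannot exclude a shared animal or culture that affects few genes. With the replicate number as a block, 5195 genes passed at 48 h, 1777 at 24 h, 862 for the change of the partner effect, and 11120 and 11388 over time. Members called stayed at 4, 4, 2, 7 and 7, and listed pathway genes were 34, 17, 8, 64 and 64. Of the named genes, the block took the call of Panx1 at 24 h (adjusted p = 0.0593) and of Ak3 for the change of the partner effect (0.0654).

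Adora2b and Cd38 at 24 h rest on few counts. The partner calls of Adora2a at both times and of Ada at 48 h, differences of 1.12-fold to 1.14-fold, were lost under upper-quartile scaling and library totals.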

Other observations

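Of the 14 T cell markers, 3 rose with shFabp7 at 48 h (Cd5, Cd6 and Cd28) and 5 fell (Cd3d, Cd3g, Cd247, Cd8a and Cd8b1), and at 24 h 1 rose (Cd5). Of all tested genes 31.6% passed at 48 h and 10.9% at 24 h. The marker calls were not repeated under other scalings. Those scalings moved the share of higher genes among all calls at 48 h from 63.2% to 39.9% (upper-quartile) and 40.5% (library totals). Cd5 rose by 0.23 ± 0.05 on the log2 scale at 48 h (edgeR adjusted p = 5.30e-04). Cd8a fell by 0.23 ± 0.05 on the log2 scale with shFabp7 at 48 h (edgeR adjusted p = 0.00143), and Cd4 was at -0.0015 ± 0.05 (edgeR adjusted p = 0.986). Over time Cd8a fell by 1.29 ± 0.05 with shFabp7 and by 1.13 ± 0.05 with the control partner, while Cd4 rose by 0.39 ± 0.05 with shFabp7 and by 0.29 ± 0.05 with the control partner. In all, 3 of the 14 rose and 10 fell over time with shFabp7, and 2 rose and 10 fell with the control partner. Over all tested genes, 66.1% passed over time with shFabp7 and 67.7% with the control partner. Itgae, an integrin gene shared by regulatory and CD8 T cells, fell by 0.71 ± 0.14 with shFabp7 at 48 h (edgeR adjusted p = 1.05e-04), and Il2ra, the interleukin 2 receptor alpha chain, rose by 0.46 ± 0.06 (edgeR adjusted p = 8.23e-08).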
